A study of Homo sapiens with 18 samples.

Results

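H3K9me3 regions that were present in untreated NB4 cells and no longer called after maltonis were examined. NB4 is an established human cell line of acute promyelocytic leukemia (APL), and maltonis is a small molecule derived from maltol. The enriched regions (peaks) of the 6 H3K9me3 libraries were merged wherever they overlapped by at least 1 bp, over chromosomes 1 to 18 and 20 to 22. Of 45475 merged regions, 1046 had a peak in all 3 untreated libraries and in none of the 3 libraries from maltonis-treated cells. These 1046 regions, called lost below, were 2.30% of all merged regions and 5.27% of the 19861 regions called in all 3 untreated libraries. The reverse pattern, a peak in all 3 maltonis libraries and in no untreated one, was held by 352 regions (gained, 0.774%), and 13714 regions were called in all 6 libraries (kept). The sets were selected on the presence or absence of H3K9me3 peaks in these 6 libraries, so their H3K9me3 values are given as a description, without a test.

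Chromatin immunoprecipitation followed by sequencing had been done on NB4 cells, either not treated or kept for 24 h in medium with 10 µM maltonis, with 3 libraries per condition for each of H3K9me3, H3K27ac and H3K4me3, 18 in all. All groups were the same cell line, grown in vitro and cross-linked with formaldehyde before lysis, so the comparison concerns 1 line and 1 dose. The study describes the replicates as biological, while the labels give replicate numbers only and name no separate cultures.

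H3K9me3 marks transcriptionally silent heterochromatin. It is written by the SUV39H enzymes, mostly at pericentromeric repeats, and by SETDB1, mostly at retroelements and zinc finger gene clusters, and it is read by the HP1 proteins. H3K27ac lies on active enhancers and promoters, and H3K4me3 on promoters in use, so both normally occupy other nucleosomes than H3K9me3 does.

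The 6 H3K9me3 lists held 28069 to 33605 peaks with 2394083 to 3132011 reads inside them, the 6 H3K27ac lists 30036 to 34128 peaks with 16627477 to 19214611 reads, and the 6 H3K4me3 lists 14423 to 16231 peaks. All 3 maltonis lists of H3K9me3 were shorter than all 3 untreated ones, and the lowest read total belonged to maltonis replicate 3. The lowest island score in a list, the caller's measure of how far a region stands above background, was 28.8, 28.8 and 28.9 in the untreated lists and 33.6, 32.7 and 28.8 in the maltonis lists. In at least 1 untreated list, 532 lost regions (50.9%) scored under the highest of these minima, and 514 (49.1%) scored at or above it in every untreated list. With all H3K9me3 lists cut at that score, 642 regions were lost and 433 gained, and the 642 included those 514. With every list cut to the same number of peaks, 529 were lost and 554 gained, so the excess of losses over gains was not kept.

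Lost regions were weak and narrow in untreated cells. Their median number of reads was 46 in untreated replicate 1, 46 in replicate 2 and 47 in replicate 3, with single regions between 24 and 141 reads. Kept regions held 100, 105 and 107 reads at the median in the same libraries. Merged width ran from 1.6 to 13.4 kb with a median of 4.4 kb, against 8.6 kb for kept and 5 kb for gained regions. Kept regions join the peaks of 6 lists and the other sets those of 3, which widens kept regions. Within a single untreated library, the median called length was 3 kb in each for lost regions and 5.4, 5.6 and 5.6 kb for kept ones. Together the lost regions covered 4.84 Mb and took 1.67 to 1.75% of the H3K9me3 reads in peaks of an untreated library.

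The strength of a region in untreated cells was graded with the number of maltonis libraries that still called it. Its island score was ranked within each untreated list as a percentile, and the median over lost regions, taken in each list, was 30.1 ± 0.560 (mean ± SD, n = 3 libraries). It was 37.4 ± 0.602 for regions called in 1 maltonis library, 47.7 ± 1.19 for those called in 2 and 75.9 ± 0.567 for kept regions. The 1825 regions just outside the rule, called in all 3 untreated and 1 maltonis library, had a median of 51 ± 1 reads against 46.3 ± 0.577 in lost regions. A further 2394 regions missed it on the other side, with a peak in 2 untreated libraries and none after maltonis. The single maltonis call was in replicate 1 for 630, in replicate 2 for 648 and in replicate 3 for 547 of the 1825 regions. With the percentile averaged over the 3 lists for each region, 34.0% of the regions called in all 3 untreated lists and ranked up to the 20th percentile were lost, 22.2% between 20 and 30, 13.1% between 30 and 40, 4.62% between 40 and 60, and 0.158% (17 of 10785) above 60.

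The untreated libraries agreed less closely over lost than over kept regions. The coefficient of variation of the 3 read counts of a region had a median of 17.96% for lost and 15.05% for kept regions, which hold more reads. The shortest of the 3 called lengths was 60.9% of the longest at the median in lost regions and 67.8% in kept regions.

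The strongest lost region by mean percentile was chr9:92141001-92144000 (coordinates of hg19, counted from 1 throughout), with 72, 82 and 76 reads in the untreated libraries. H3K27ac was called over it in all 6 libraries and H3K4me3 in none, and the nearest kept H3K9me3 region lay 14.6 kb away. The region chr1:4812601-4820600 ranked next, with 117, 121 and 125 reads, H3K27ac in all 6 libraries and no kept region nearer than 177.2 kb. Its reads were alike in the 3 libraries, but its island scores were 108.9, 110.9 and 64.2. The third in rank, chr10:6428601-6435000 (92, 81 and 90 reads), carried neither active mark and lay 1.8 kb from a kept region.

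The fourth, chr22:27120401-27124600, had 81, 69 and 66 H3K9me3 reads and stood out for its active marks. H3K27ac was called there in 3 untreated and 1 maltonis library, and H3K4me3 in 3 untreated and 0 maltonis libraries. Calls of both active marks were thus fewer after treatment. The absence of H3K9me3 calls after maltonis was set by the rule. The remaining 6 of the 10 strongest were chr3:52751801-52757600, chr2:8451801-8462200, chr11:96014201-96021200, chr2:192394401-192403200, chr1:241736401-241744600 and chr11:72685401-72691600. Their distances to kept regions ran from 0.4 to 264.8 kb. Of the 10, 7 had an H3K27ac peak in at least 2 untreated libraries and 3 had none in any library. An H3K27ac peak in any library was found over 31.4% of all lost and 34.5% of kept regions.

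The 3 widest lost regions carried no H3K27ac or H3K4me3 peak in any library. The widest, chr9:14669801-14683200, spanned 13.4 kb, but the libraries differed widely there, with 40, 141 and 92 reads and a called length of 2.4 kb in untreated replicate 1 against 13.2 kb in replicate 2. The others were chr3:33302601-33314600 (12 kb; 102, 104 and 85 reads) and chr11:94106401-94118200 (11.8 kb; 62, 73 and 85 reads). At the other end of the scale, chr1:244644201-244649000 was the weakest lost region, with 35, 35 and 42 reads.

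Lost regions were found on all 21 chromosomes. Chromosome 2 held 109, chromosome 1 held 104 and chromosome 5 held 103, while chromosome 21 held 14 and chromosomes 18, 20 and 22 held 18 each. Per length the counts were rather even, from 2.31 lost regions per 10 Mb on chromosome 18 to 5.70 on chromosome 5, whereas kept regions ran from 23.5 per 10 Mb on chromosome 8 to 101 on chromosome 7. The share of untreated regions that were lost therefore differed between chromosomes.

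That share was highest on chromosome 22, at 9.52% (18 of 189 regions, 95% Wilson interval 6.11 to 14.6%), and on chromosome 5, at 9.23% (103 of 1116, 7.67 to 11.1%). Chromosomes 17, 1 and 8 followed with 8.55, 8.53 and 8.24%, and the intervals of these 5 overlapped. Chromosome 7 lost the least, 2.61% (55 of 2110, 2.01 to 3.38%), next to 3.12% on chromosome 20, 3.30% on chromosome 12 and 3.40% on chromosome 13. The intervals cover counting error only and treat neighbouring regions as independent.

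**Figure D1:**
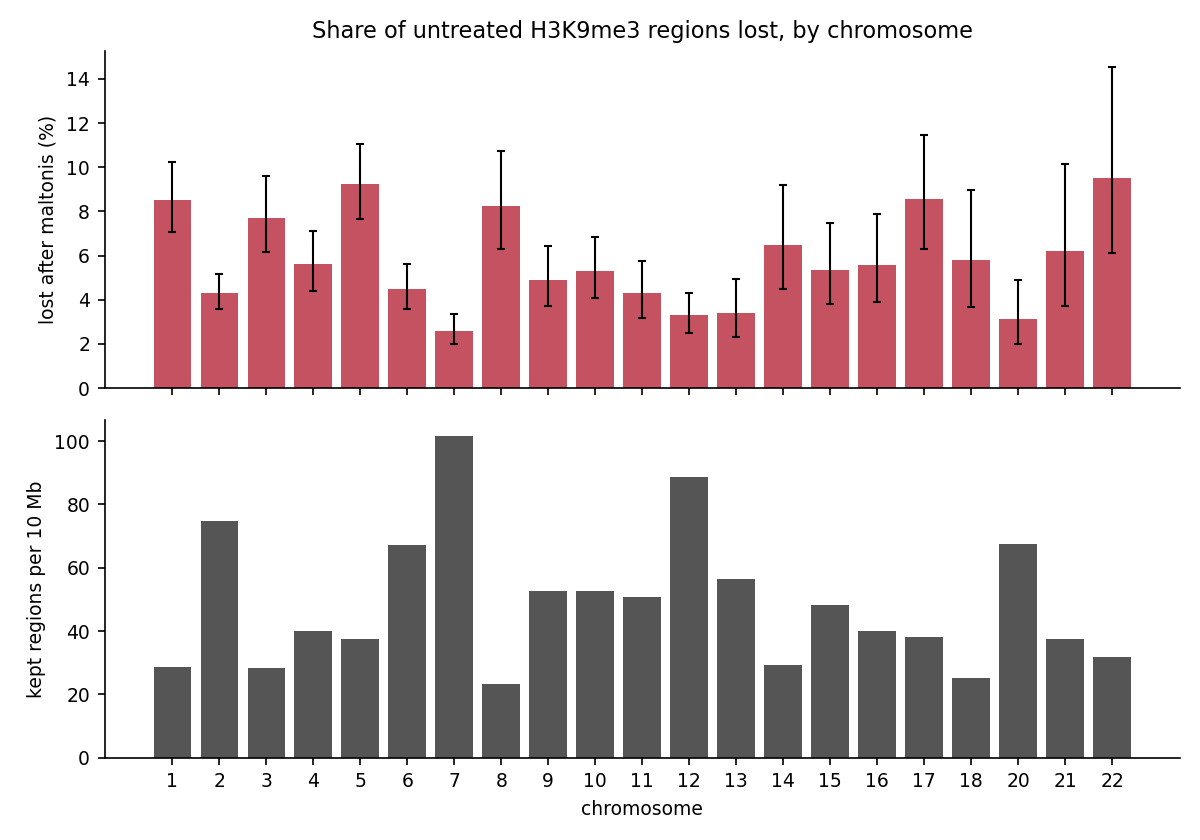
Upper panel, share of the H3K9me3 regions called in all 3 untreated libraries that were lost after maltonis, in percent, for each chromosome, with 95% Wilson intervals. Lower panel, kept regions per 10 Mb between the outermost peaks. Chromosome 7, with 101 kept regions per 10 Mb, lost 2.61%, and chromosome 22, with 32.0, lost 9.52%.

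Chromosomes dense in kept regions lost a smaller share. Over the 21 chromosomes the density of kept regions and the percentage lost had a Pearson r of -0.794 and a Spearman rho of -0.866, while density and the number of lost regions per 10 Mb had r of -0.0216 and rho of 0.0286. These are descriptions, since kept regions form most of the denominator of the percentage and all points come from the same 6 libraries. The order of the shares was the same within bands of untreated strength. The bands and the ranking of chromosomes by kept regions use the same H3K9me3 calls, so this too is only a description. On the 5 densest chromosomes (2, 6, 7, 12 and 20), 25.4% of regions up to the 20th percentile were lost, against 48.0% on the 5 sparsest (1, 3, 8, 14 and 18). Between percentiles 30 and 40 the shares were 10.6 and 16.5%, and between 40 and 60 they were 2.94 and 5.69%.

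Lost regions were less frequent near chromosome ends than the other sets. Within 5 Mb of the outermost peak of a chromosome lay 96 lost regions (9.18%), against 14.3% of kept and 16.8% of gained regions.

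The median gap from a lost region to the nearest kept one was 49.8 kb, with quartiles at 15 and 148 kb, against 42.4 kb for gained regions and 22.6 kb from a kept region to the next kept one. It was 20.7 kb when a call in at least 1 library of each condition was enough to count as kept. Within 5 kb of a kept region lay 11.8% of the lost regions, within 10 kb 19.5% and within 100 kb 65.8%, and the most distant was 3447 kb away. A kept region stood within 100 kb on both sides of 320 lost regions, on 1 side of 368 and on neither side of 358. The nearest kept region was itself of ordinary size, with a median of 7.6 kb. The nearest H3K9me3 region of any kind, kept and lost ones included, lay at a median of 11.8 kb.

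**Figure D2:**
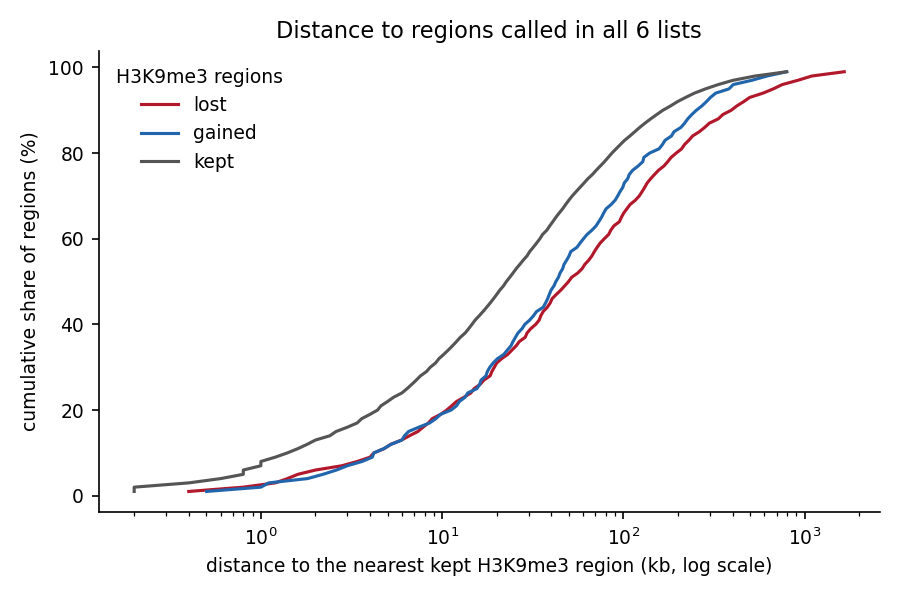
Cumulative share of lost, gained and kept H3K9me3 regions, in percent, against the distance to the nearest kept region in kb on a log scale. The curves show percentiles 1 to 99, and distances under 0.2 kb are drawn at 0.2 kb. The curve of kept regions, with a median of 22.6 kb, lies left of those of gained (42.4 kb) and lost regions (49.8 kb).

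H3K9me3 calls beside the regions are described here with no test, since they share the libraries that chose the regions. Of the bases within 50 kb on either side of lost regions, 8.25, 8.58 and 8.84% lay in peaks of the untreated libraries and 7.77, 7.56 and 6.47% in those of the maltonis libraries. Around kept regions the values were 13.9, 14.4 and 14.6% untreated and 14.8, 14.5 and 12.3% after maltonis. Around gained regions they were 8.14, 8.99 and 8.42% untreated and 10.9, 10.3 and 8.78% after maltonis. The conditions did not overlap around lost regions, where the maltonis values were lower, and overlapped around kept and gained regions. Without maltonis replicate 3, which had the fewest reads, the maltonis values around lost regions stayed below every untreated one. Around gained regions they then lay above every untreated one. Other members of a set were not taken out of these flanks, and 84 lost regions (8.03%) had another within 50 kb. The differences are therefore partly set by how the regions were chosen. Kept regions within 10 kb of a lost one had a median log2 fold change in H3K9me3 reads of -0.09 (n = 228), against -0.03 at 100 to 500 kb (n = 3968) and 0.02 farther away (n = 8190). When each library's called length was taken into account, these medians were 0.00, 0.00 and 0.02.

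Most lost regions were solitary. The nearest other lost region was 619.8 kb away at the median, and 893 of the 1046 had none within 100 kb. The other 153 (14.6%, Wilson interval 12.6 to 16.9%) formed 62 pairs, 8 triples and 1 group of 5. The interval treats regions as independent, although nearness is mutual within a pair, so it is too narrow. For gained regions the share within 100 kb of another was 9.66% and for kept regions 82.7%, and both shares depend on how many regions a set holds. In 37 neighbouring pairs no other H3K9me3 region lay between the lost ones. The 8 triples spanned 86.2 to 168.6 kb, and 4 of them had no kept region inside.

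The densest 1 Mb stretch lay on chromosome 5, where chr5:164379401-164730800 held 7 lost regions in 351.4 kb. It contained the group of 5, chr5:164541601-164730800. Of 28 merged H3K9me3 regions in it, 8 were kept and none was gained. The number of H3K9me3 peaks was 17, 26 and 28 in the untreated and 15, 13 and 13 in the maltonis libraries, a difference to which the 7 lost regions contribute by their choice. Outside the lost regions the numbers were 10, 19 and 21 untreated and 15, 13 and 13 after maltonis, which overlap. Its 7 lost regions were 3.4 to 6.6 kb wide and together held 369, 323 and 313 reads. H3K27ac peaks numbered 7, 5 and 4 untreated and 7, 6 and 7 after maltonis. Of the 7 regions, 3 met an H3K27ac peak in at least 1 library, and only chr5:164628801-164635400 did so in all 6. None of the 7 met an H3K4me3 peak.

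**Figure D3:**
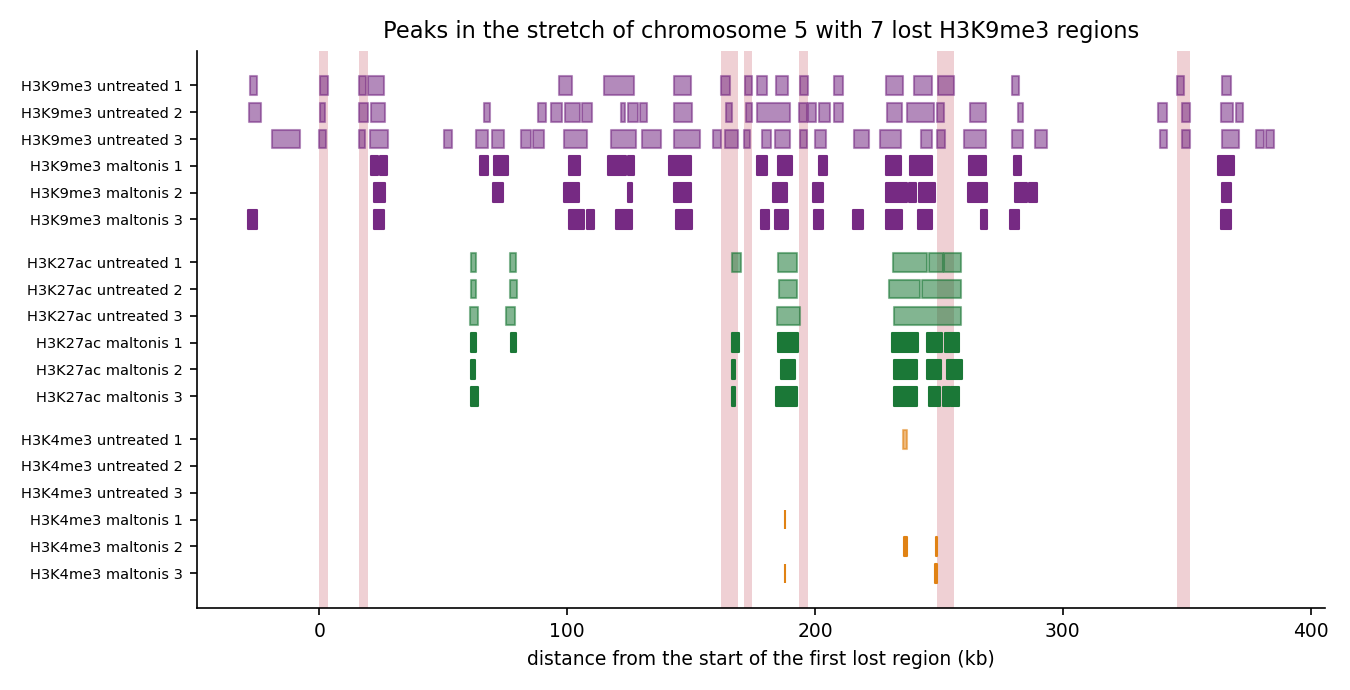
Peaks of the 18 libraries in the stretch of chromosome 5 with 7 lost H3K9me3 regions (pink bands), by distance in kb from the start of the first lost region. Pale bars are untreated and dark bars maltonis libraries. The bands hold H3K9me3 peaks in all 3 untreated tracks and in no maltonis track, while kept regions between them appear in all 6.

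The next stretches held 5 lost regions each on chromosomes 1, 15 and 17, and 4 on chromosome 4. In chr1:184128601-185045400, H3K9me3 peaks outside the lost regions numbered 7, 7 and 8 untreated and 8, 6 and 6 after maltonis, while H3K27ac peaks went from 14, 14 and 14 to 15, 16 and 16. The stretch on chromosome 15, chr15:95764001-96715600, was rich in H3K9me3, with 61 merged regions and 18 kept, and its H3K27ac peaks went from 15, 14 and 13 to 9, 8 and 8. In chr17:75327601-76304200 the H3K9me3 peaks outside the lost regions numbered 14, 16 and 15 untreated and 11, 14 and 13 after maltonis, and the H3K27ac peaks 35, 41 and 37 untreated and 27, 31 and 29 after. The shortest of these, chr4:139927801-140251000, kept 1 of its 9 H3K9me3 regions. Outside the lost regions it had 5, 5 and 4 H3K9me3 peaks untreated and 4, 2 and 1 after maltonis, while H3K27ac showed 16, 16 and 12 untreated and 13, 16 and 15 after maltonis. Outside the lost regions, the H3K9me3 peak numbers of the 2 conditions overlapped in all 5 stretches. On chromosomes 17 and 4 they did so only by a tie between the lowest untreated and the highest maltonis number. The H3K27ac peak numbers were higher after maltonis in 1 stretch, lower in 2, and overlapped between conditions in the other 2. Other stretches of the genome were not counted for comparison. Peak number is also not the amount of mark. In the chromosome 5 stretch, a single peak of untreated replicate 3 at 231.8 to 259 kb was several shorter peaks in maltonis replicate 3.

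The H3K27ac and H3K4me3 libraries were not used to choose the lost regions and were tested. An H3K27ac peak met 25.3, 25.2 and 25.8% of lost regions in the untreated libraries and 20.7, 21.3 and 20.3% in the maltonis libraries. The mean went from 25.5 ± 0.307% to 20.8 ± 0.527% (SD, n = 3 each), a difference of -4.68 percentage points. No maltonis library reached the lowest untreated one, and the exact two-sided permutation test over libraries gave p = 0.1, the smallest value that 3 against 3 allows, with an adjusted p of 0.133 over 12 comparisons of this family. The share of lost regions with at least 50% of their bases under H3K27ac went from 14.9 ± 0.824% to 11.1 ± 0.622% (exact p = 0.1). The distance to the nearest H3K27ac peak had a median of 14, 14.4 and 14.5 kb untreated and 21.2, 18.8 and 20.8 kb after maltonis (exact p = 0.1).

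No maltonis library thus showed more H3K27ac calls over the regions that had lost H3K9me3 calls. The share also went down on kept regions, from 28.9 ± 0.187% to 25.5 ± 0.338%, and on gained regions, from 65.1 ± 0.492% to 61.9 ± 0.284%. All H3K27ac peaks together covered 204.7 to 216.2 Mb in untreated and 160.4 to 172.7 Mb in maltonis libraries, although the lowest island score was higher in the untreated lists (36.2 to 39.9) than in the maltonis lists (27.1 to 32.7). With all H3K27ac lists cut at the highest of these minima, the difference on lost regions was -6.02 points (exact p = 0.1). The difference between lost and kept regions within a library was -3.42 ± 0.242 percentage points untreated and -4.77 ± 0.349 after maltonis. This was a further change of -1.34 points (exact p = 0.1, adjusted p = 0.133). The sign of this gap depended on how regions were counted, and kept regions are wider. With at least 50% of bases covered, lost minus kept was 4.14 ± 0.488 points untreated and 2.50 ± 0.181 after maltonis. The change was then -1.63 points (exact p = 0.1, adjusted p = 0.133). By the share of bases covered, the gap was -0.259 ± 0.120 points untreated and -1.43 ± 0.193 after maltonis (exact p = 0.1). Gained regions carried H3K27ac more often than lost ones in every library of either condition.

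**Figure D4:**
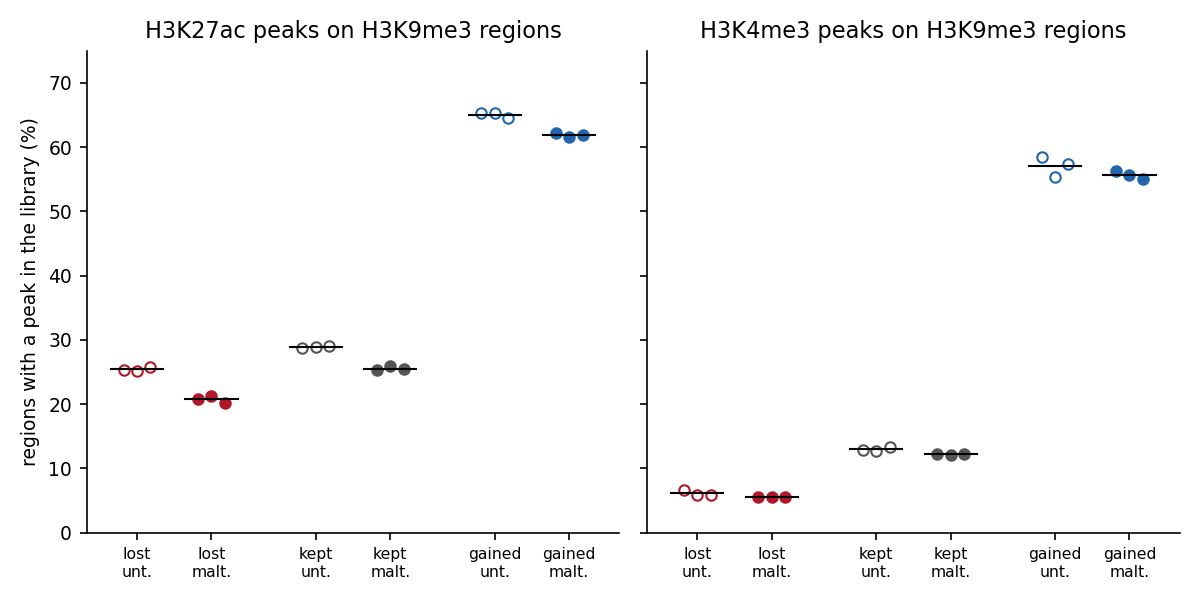
Share of lost, kept and gained H3K9me3 regions that met an H3K27ac peak (left) or an H3K4me3 peak (right), in percent, in each library. Open circles are untreated and filled circles maltonis libraries, and bars are means of 3. On lost regions H3K27ac went from 25.5 to 20.8% and H3K4me3 from 6.12 to 5.64%.

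H3K4me3 was rare on lost regions. A peak met 6.60, 5.83 and 5.93% of them untreated and 5.64% in each of the 3 maltonis libraries, a difference of -0.478 percentage points (exact p = 0.1, adjusted p = 0.133), whose sign turned to 0.478 points with equal numbers of H3K4me3 peaks per list (exact p = 0.1) and to 0.287 points when at least 50% of the region had to be covered (exact p = 0.2). No direction is therefore given. On kept regions the share was 13.0 ± 0.311% untreated and 12.2 ± 0.156% after maltonis. The gap between lost and kept regions was -6.87 ± 0.550 points untreated and -6.57 ± 0.156 after maltonis (exact p = 0.5). This gap too depends on the greater width of kept regions. With at least 50% of bases covered, the shares were 0.574% of lost and 0.374% of kept regions untreated, and 0.860 and 0.455% after maltonis. Of the bases of lost and kept regions, 1.44 and 1.76% were under H3K4me3 untreated.

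Most lost regions were free of active marks. Neither mark was called in any library over 709 of the 1046 (67.8%), H3K27ac alone over 227 (21.7%), H3K4me3 alone over 9 and both over 101 (9.66%). Most kept regions were free of them too, with neither mark over 61.5%. H3K27ac alone was called over 17.2% of kept regions, H3K4me3 alone over 3.97% and both over 17.4%. Lost regions with H3K27ac alone or with both marks lay nearer to kept H3K9me3, at medians of 30 and 33.8 kb, than those with neither, at 65 kb. Their median strength percentiles were 33.0, 34.3 and 28.6. The same contrast was seen among kept regions, so it was not particular to lost ones. Kept regions with H3K27ac alone or both marks lay 16.6 and 13.4 kb from the next kept region, and those with neither 29.6 kb. The strength percentiles of these kept regions were 80.7, 82.0 and 70.7.

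Followed region by region, H3K27ac calls on most lost regions were the same or fewer after maltonis. All 6 libraries had a peak over 169 lost regions and none had one over 718. More untreated than maltonis libraries had a peak over 113 regions (10.8%), and the reverse was found for 32 (3.06%). On kept regions these shares were 8.74 and 3.51%. H3K27ac was called in all 3 untreated and no maltonis library over 26 lost regions, spread over 13 chromosomes and 1.6 to 8.2 kb wide, and 3 of them also met H3K4me3. The strongest of them by H3K9me3 was chr6:22068801-22076800, with 67, 101 and 55 H3K9me3 reads in untreated cells. Counted as H3K27ac regions, 20 of the 359 that met a lost region (5.57%) were called in 3 untreated and 0 maltonis libraries, where 6.12% of all 34856 merged H3K27ac regions were. For the opposite pattern it was 1 of 359 (0.279%) against 1.67%. The loss of H3K27ac calls was thus close to the level of all H3K27ac regions.

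The region that acquired H3K27ac in all 3 maltonis libraries was chr15:58663401-58667600, with 51, 29 and 37 H3K9me3 reads in untreated cells. It and the following regions were picked out after their values were seen. H3K4me3 was called in 3 untreated and 0 maltonis libraries over 4 lost regions (0.382%, near the 0.299% of kept regions). These were chr22:27120401-27124600, chr7:1456001-1459000, chr2:234071801-234078000 and chr12:123573201-123577000. The opposite pattern, 0 untreated and 3 maltonis libraries, was held by 0.191% of lost and 0.277% of kept regions. The lost ones were chr8:57473601-57477800 and chr3:45206401-45209000. On these 2 regions, and on 3 of the 4 that no longer had H3K4me3, H3K27ac was called in all 6 libraries.

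H3K27ac reads were compared over the 18514 H3K27ac regions called in all 6 libraries, of which 246 met a lost H3K9me3 region. By the edgeR quasi-likelihood test, where a call needed a Benjamini-Hochberg adjusted p no higher than 0.01 and a log2 fold change past 0.58 in either direction, 65 of the 246 had fewer reads after maltonis (26.4%, where 19.7% of all tested regions did). More reads were found in 9 (3.66%, against 7.99% of all). The median log2 fold change was -0.21 on lost regions and -0.03 over all tested regions, and 168 of the 246 were below 0. On kept H3K9me3 regions 21.5% had fewer and 7.08% more reads, with a median of -0.08. On gained regions, 28 of 216 had fewer and 17 had more, with a median of 0.04.

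A region's reads were counted inside the peaks of each library, so the count moves with the called length. With that length as an offset, 15 of the 246 had fewer reads (6.10%, where 2.24% of all did) and 9 had more (3.66%, against 5.88%). The median was then 0.07 on lost regions and 0.16 over all. H3K27ac regions that met an H3K4me3 peak made up 188 of the 246, and 45 of these had fewer reads (23.9%, against 17.4% of all such regions). Of the 58 without H3K4me3, 20 had fewer (34.5%, against 27.3%).

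**Figure D5:**
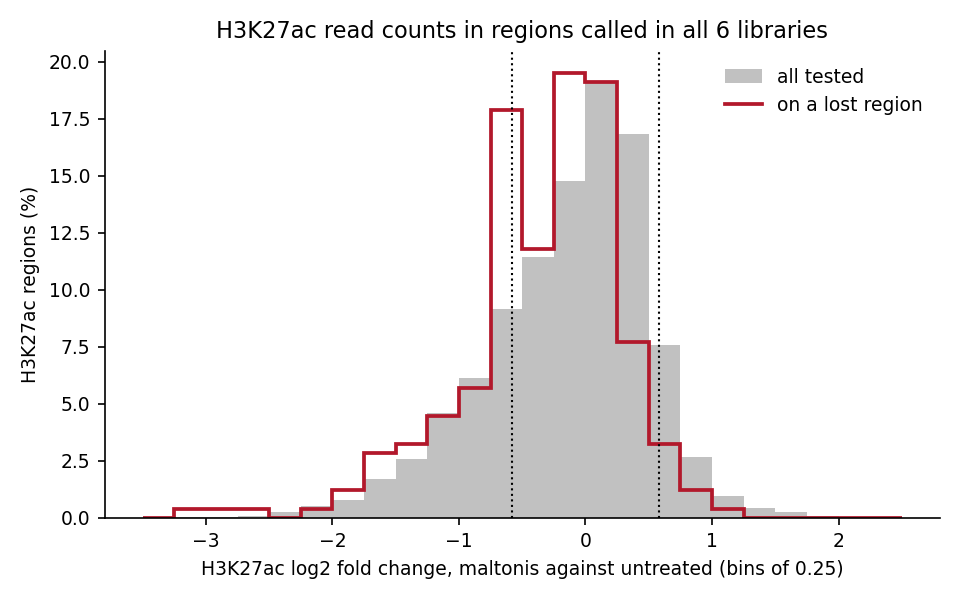
Distribution of log2 fold changes in H3K27ac reads, maltonis against untreated, in bins of 0.25, as a percentage of the 246 H3K27ac regions on a lost H3K9me3 region (line) and of all 18514 tested (grey). Dotted lines mark 0.58 either way. The line lies to the left of the grey area, with medians of -0.21 and -0.03.

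Among the H3K27ac regions with fewer reads, the smallest adjusted p belonged to chr8:126610601-126629600. It held 1323, 1490 and 1360 H3K27ac reads in untreated and 295, 369 and 320 in maltonis libraries, a log2 fold change of -2.04 ± 0.06 (SE, edgeR adjusted p = 1.3e-08), and -0.91 with length as an offset (adjusted p = 0.00167). The lost H3K9me3 region inside it, chr8:126621401-126623800, had 43, 63 and 68 H3K9me3 reads in untreated cells. The loss of H3K9me3 calls there was set by the rule, while the fall in H3K27ac reads around it was not.

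The largest fall of those named was at chr10:80501001-80524200, from 903, 784 and 918 reads to 90, 92 and 97. Its log2 fold change was -3.18 ± 0.11 (edgeR adjusted p = 2.68e-08), and its called length was 20.2, 14.6 and 19.4 kb in untreated and 2.6 kb in each of the maltonis libraries. With length as an offset the change was -0.39 (adjusted p = 0.0475), outside the criteria. The lost region chr10:80508401-80511200 met H3K27ac in all 3 untreated and no maltonis library, so H3K27ac was no longer called over it while a part of the domain still was.

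The other 3 were broad regions that stayed called over the lost H3K9me3 region in all 6 libraries. At chr10:106073801-106100800 reads went from 4081, 4199 and 4140 to 2220, 2590 and 2408 (log2 fold change -0.74 ± 0.03). At chr7:2728201-2784200 they went from 6049, 6282 and 6207 to 2990, 3607 and 3425 (-0.84 ± 0.03). At chr12:2391401-2418000 they went from 2297, 2292 and 2235 to 903, 1003 and 1015 (-1.18 ± 0.04). With length as an offset, the first of these stayed within the criteria at -0.60 and the other 2 did not, at -0.54 and -0.28. The value of -0.54 fell short of the threshold by less than 0.16, the median over all regions with that offset.

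Of the 5 named H3K27ac regions with more reads, the largest rise was at chr9:136986401-136991600, from 146, 104 and 106 to 231, 284 and 281 reads (log2 fold change 1.20 ± 0.18, edgeR adjusted p = 0.00024). The lost region there, chr9:136984201-136989800, was among the stronger ones, with 87, 71 and 93 H3K9me3 reads, and met no H3K4me3. At chr1:184834201-184839800, inside the stretch of chromosome 1 described above, H3K27ac reads went from 344, 387 and 400 to 567, 642 and 591 (0.72 ± 0.07, edgeR adjusted p = 1.97e-05). These 2 stayed within the criteria with length as an offset, at 0.65 and 0.72.

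The remaining 3 did not stay within them once length was an offset. At chr2:203875201-203888600 reads went from 662, 694 and 693 to 980, 1196 and 1120 (0.73 ± 0.05), at chr10:95227401-95245200 from 453, 445 and 556 to 693, 936 and 700 (0.72 ± 0.11), and at chr8:103895601-103904800 from 287, 359 and 310 to 467, 489 and 472 (0.63 ± 0.10). Over the lost region beside the chromosome 2 peak, chr2:203871201-203875800, H3K27ac was called in 0 untreated and 2 maltonis libraries.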

How the data were processed

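The 18 peak lists, 3 for each mark and condition, were used as deposited, 1 per library, without pooling. Per the study's methods, H3K4me3 peaks came from MACS2 and H3K9me3 and H3K27ac peaks from epic2. The submitters' processing notes name BWA, SAMtools, MACS2, SICER and hg19. Each epic2 region carries a deposited read count, not normalised and made inside that library's own boundaries, and a deposited island score. For every MACS2 peak the deposited columns give a score, an enrichment ratio (fold over background) and −log10 p and q values by the authors, of which only −log10 q was used, as a filter. The epic2 lists hold enriched 200 bp windows joined by the caller, so values under the calling threshold are not known, and a lost call is not a measured absence of H3K9me3.

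Groups and replicate numbers came from the sample titles. The numbers were not used to pair libraries in the main tests. Deviations of same-numbered libraries from their group means correlated between 0.0021 and 0.032 for H3K27ac, so no pairing was seen in the counts. Whether same-numbered libraries were made in parallel cannot be told from this, and the labels do not say. No 2 lists shared more than 1 identical peak. Members, region lists and tests were chosen with earlier results of these data known. Shares per library were compared with an exact two-sided permutation test over 20 assignments. H3K27ac counts were summed per merged region called in all 6 libraries and tested with edgeR 4.0.16 (TMM, quasi-likelihood, R 4.3.3), also checked on simulated data, with DESeq2 1.42.0 as an alternative. The regions named were the 10 strongest and 3 widest lost regions, the 5 densest 1 Mb stretches and up to 5 H3K27ac regions each way by adjusted p. No annotation of hg19 was used, so genes, sequences and cell type markers at these regions were not analysed here. Chromosomes 19, X and Y were not analysed here.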

Additional observations from a re-analysis of the deposited data

How the results depend on the processing

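The number of lost regions depended on which peaks were admitted and how many lists had to agree. It was 529 with equal numbers of peaks per list (504 of them among the 1046), 642 with a common lowest island score and 3440 when 2 of 3 untreated lists sufficed. With the strongest 75% of each list it was 796, of which 275 were among the 1046. Leaving out a library relaxes the rule by 1 call, and gave 1969, 1850 and 1810 without untreated replicates 1, 2 and 3 and 1703, 1720 and 1603 without maltonis replicates 1, 2 and 3. The median distance to kept regions was 20.7 kb when kept meant a call in at least 1 list of each condition, and 40 to 49.3 kb with a library left out. The share within 100 kb of another lost region was 9.17% with the strongest 75%, 10.0% with equal numbers, 10.1% with the common score and 34.9% with 2 of 3 lists. It was 19.5 to 23.9% with a library left out, highest without untreated replicate 1 (23.9%) and replicate 2 (22.3%). At 50 kb it was 8.03% and at 200 kb 22.5%.

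The difference in H3K27ac share kept its sign and stayed without overlap in all 23 alternatives run, between -3.56 and -6.02 points. That of H3K4me3 changed sign in 3 of 23, to 0.478 points with equal numbers of peaks, 0.287 with 50% of the region covered and 0.0319 with −log10 q of at least 10. Regions with fewer H3K27ac reads numbered 15 with called length as an offset and 60 to 64 with a library left out, and the other alternatives stayed within 1.5 times the count reported. The replicate block, on numbers that showed no pairing in the H3K27ac counts, gave 64 with fewer and 9 with more reads, and p = 0.25 for both shares by exact permutation of signs, the smallest it allows. Of the 10 H3K27ac regions named, 6 left the criteria with the length offset, whose zero was not re-centred, and none did under the other alternatives.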
